A study of Mus musculus with 6 samples.

Results

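Mouse chromosome 4 more than 5 Mb upstream of the Wnt4 promoter was examined as a target of very long-range contacts in circular chromosome conformation capture (4C-seq), an assay that crosslinks chromatin, cuts and religates it, and sequences whatever DNA became joined to a single bait fragment, the viewpoint. Upstream means lower coordinates. The members were all listed fragment ends more than 5 Mb below the viewpoint end, from position 3001020 to 131831414 of the mm9 build. They numbered 309645 of the 369081 ends listed for the chromosome, or 83.9%, and all of them were listed in each of the 6 libraries. An end with at least 1 read is called captured, and the captured share is the percentage of listed ends that were captured.

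Libraries were made in triplicate from each of the BC44 and HC11 lines, both mouse mammary epithelium in culture, with no genetic change or treatment named for either. Values given library by library follow the order of replicates 1, 2 and 3. Both lines grew in RPMI1640 with 10% serum and insulin at 5 µg/ml, and HC11 cells also received epidermal growth factor (EGF) at 10 ng/ml, so the line and EGF cannot be told apart. Each line is a single established line and not a set of animals. The labels do not say that the replicates were separate cultures, so each p-value measures the spread between these libraries, which may be technical. The files hold no expression values, so the mammary epithelial identity was not checked here.

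Wnt4 encodes a secreted Wnt ligand of the mammary epithelium. Within a chromosome, contact frequency falls with distance along the DNA, and beyond several megabases it also follows compartments, in which gene-rich active chromatin tends to lie near other gene-rich chromatin and gene-poor silent chromatin near its own kind. In 4C-seq a single distant ligation is amplified by PCR, and so, far from the viewpoint, the presence of an end says more than its number of reads.

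Total reads were between 96690 and 1755373 per library, lowest in HC11 replicate 2, and 13621 to 163080 of them lay upstream of the 5 Mb limit. PCR reads without molecular identifiers are not independent molecules, so the intervals given here cover counting error only. Captured ends numbered 2190, 1262 and 1035 for BC44, and for HC11 1116, 819 and 1123. BC44 replicate 1 stood above the other 5 libraries. The captured share was between 0.264% (95% Wilson interval 0.247% to 0.283%) in HC11 replicate 2 and 0.707% (0.678% to 0.737%) in BC44 replicate 1. Over the 6 libraries 7272 ends were captured at all, or 2.35% of those listed.

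The DNA of the captured ends is shown first for 2 extremes, because they look unlike each other. No end was captured in 5 or 6 libraries, and 10 ends were captured in 4. The ends printed here were chosen after their values were seen. Each sequence is the first 80 bases of the fragment end from its DpnII site, 5′ to 3′, read from mm9, and none of these fragments overlaps an exon. Among the 10 ends found in 4 libraries, 4 are printed with their most copied 20-base word in capitals. The first is in an intron of Kdm4c, a histone demethylase gene, and the next lies 25.8 kb from Ssbp3. Then come an end in an intron of Rbbp4, a histone-binding protein gene, and an end 8.0 kb from Acot11.
chr4:73929060-73929139, plus strand: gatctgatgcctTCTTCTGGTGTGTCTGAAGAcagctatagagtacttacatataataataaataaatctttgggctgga
chr4:106557460-106557539, plus strand: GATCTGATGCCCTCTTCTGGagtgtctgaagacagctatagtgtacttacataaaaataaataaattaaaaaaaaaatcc
chr4:128998819-128998898, minus strand: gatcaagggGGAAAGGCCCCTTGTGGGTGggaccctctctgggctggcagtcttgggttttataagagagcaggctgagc
chr4:106485646-106485725, plus strand: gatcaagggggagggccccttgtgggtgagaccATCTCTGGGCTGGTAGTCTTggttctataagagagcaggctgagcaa

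These 4 sequences fall into families. The ends at Kdm4c and near Ssbp3 share a run of 20 identical bases, and so do the ends at Rbbp4 and near Acot11. Of the 10 ends captured in 4 libraries, 8 shared a run of at least 16 bases with another end captured in 3 or more. The most copied word of each of the 10 occurred between 49 and 3428 times on chromosome 4, counting both strands, with a median of 922. The Kdm4c end had 0, 1 and 2 reads in BC44 and 3, 0 and 1 reads in HC11. The end near Ssbp3, with the most reads of the 10, had 0, 31 and 12 reads in BC44 and 0, 3 and 13 in HC11.

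At the other extreme are ends captured in a single library with many reads. The 3 with the most reads, printed next, lie 7.9 kb from Zcchc7, in an intron of 2210012G02Rik and in an intron of Ror1, a receptor tyrosine kinase-like gene. Capitals mark the DpnII site.
chr4:44952863-44952942, minus strand: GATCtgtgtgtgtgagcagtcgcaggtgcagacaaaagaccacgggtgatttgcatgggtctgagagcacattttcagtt
chr4:106832846-106832925, minus strand: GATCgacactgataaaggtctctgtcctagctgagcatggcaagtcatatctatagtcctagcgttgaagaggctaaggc
chr4:100105785-100105864, minus strand: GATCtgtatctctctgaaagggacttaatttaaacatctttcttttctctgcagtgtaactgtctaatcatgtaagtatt

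No 20-base word in the first 60 bases of these ends occurred more than 2 times on the chromosome. The end near Zcchc7 had 2640 reads in BC44 replicate 2 and 0 in the other 5 libraries. The end in 2210012G02Rik had 2090 reads in HC11 replicate 1 and 0 elsewhere, and the end in Ror1 had 1439 reads in HC11 replicate 3 and 0 elsewhere. Capture in a single library is how these ends were chosen. The most reads of any end captured in 2 libraries were 885. There were 217 such ends against 7032 captured in 1 library, so the maxima rest on unlike numbers of ends. The upper quartiles were 99.75 reads for 2 libraries and 107 for 1.

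The same features were counted over all captured ends, as a description. Of the 7272 captured ends, 7032 (96.7%) were captured in 1 library, 217 in 2, 13 in 3 and 10 in 4. The median number of reads per capture was 31 for ends of 1 library, 22 for 2, 3 for 3 and 1 for 4. An end was counted as holding a repeated word when a 20-base word in its first 60 bases occurred at least 10 times on chromosome 4, a definition chosen after the data were seen. Such ends made up 18.4% of the ends captured in 1 library, 32.7% of those in 2, 69.2% of those in 3 and 100% of those in 4, against 19.4% of all listed ends. Ends captured in more libraries thus had fewer reads and more often a repeated word, and how reads of repeated words were placed was not tested.

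**Figure D1:**
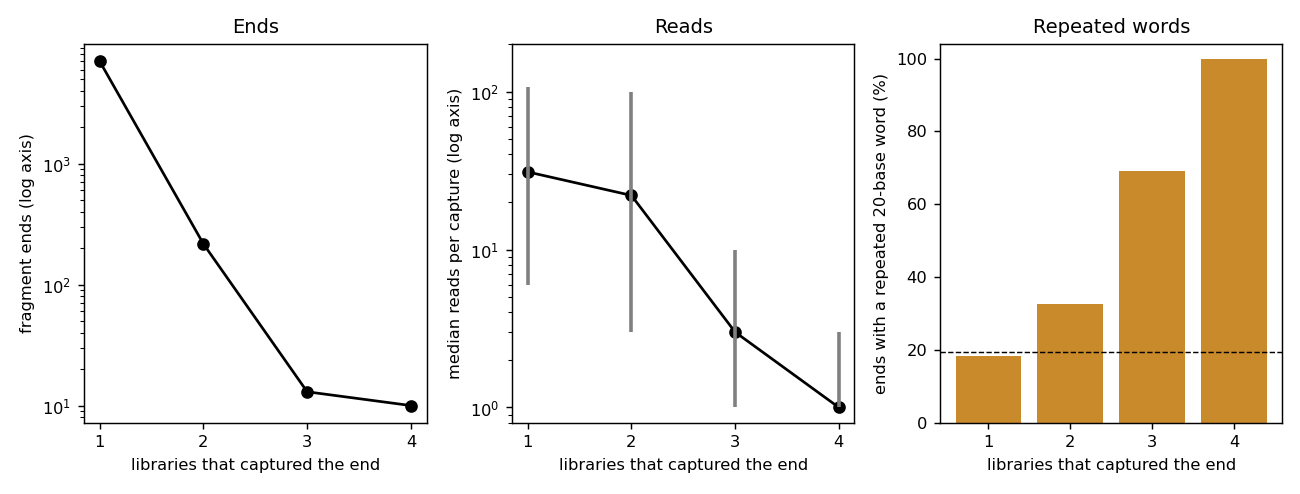
Fragment ends by the number of libraries that captured them: the number of ends (left, log axis), the median reads per capture with grey bars from the lower to the upper quartile (middle, log axis), and the percentage holding a 20-base word that occurs at least 10 times on the chromosome (right, dashed line at 19.4% for all listed ends). Ends fall from 7032 to 10, the median from 31 reads to 1, and the repeated words rise from 18.4% to 100%.

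When ends with a repeated word were set aside, the order of the read numbers turned. The remaining ends captured in 2 or more libraries numbered 150 and had a median of 43.5 reads per capture, against 36 for the 5740 captured in 1. Among ends with a repeated word, the median was 2 reads for the 90 captured in several libraries and 9 for the 1292 captured in 1. The 150 ends lay nearer the viewpoint, at a median of 17.6 Mb against 35.8 Mb, and 111 of them (74.0%) were in gene-dense windows, defined below, against 61.8% of the ends captured in 1. Neither difference was tested.

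Any pair of libraries shared between 7 and 37 captured ends. The shared ends were 0.826% of the union on average over the 6 pairs within a line and 0.854% over the 9 pairs between lines. Sharing within lines therefore did not exceed sharing between them (difference -0.0274 percentage points; one-sided exact permutation test over 10 splits, p = 0.6, adjusted p = 0.6; the smallest p this test allows is 0.1). Single ends were thus seldom found again, in libraries of the same line as in those of the other. Each library captured only 0.264% to 0.707% of listed ends, which limits sharing. How much sharing these captured shares alone would give was not computed.

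Summed over 1 Mb windows, the libraries had profiles in common. There were 129 windows with at least 200 listed ends, and the captured share per window had a Spearman correlation of 0.605 to 0.750 between libraries over these windows, a description since neighbouring windows and the viewpoint are shared. The mean captured share of a window was between 0.0742% and 2.03%, with a median of 0.241%.

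**Figure D2:**
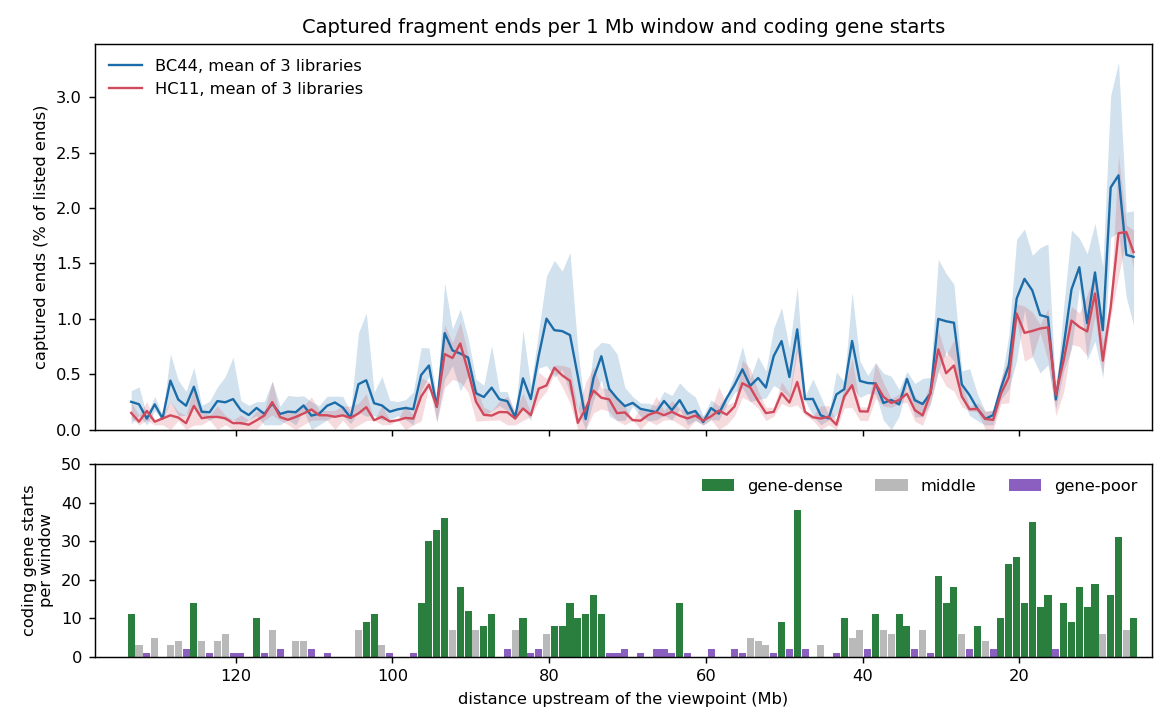
Captured share of each 1 Mb window (top; percent of listed ends; line, mean of the 3 libraries of a cell line; shading, lowest to highest library) and coding gene starts per window (bottom) against distance upstream of the viewpoint in Mb, which falls from left to right. The highest window reaches a mean of 2.03% near the viewpoint, the lowest is at 0.0742% and the median window at 0.241%.

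The 8 windows with the highest captured share were all within 20 Mb of the viewpoint. The highest, chr4:129000001-130000000, holds Khdrbs1, an RNA-binding protein gene, Hdac1, a histone deacetylase gene, and Eif3i, a translation initiation factor gene. Its captured share was 3.32%, 1.79% and 1.79% in BC44 and 1.46%, 1.38% and 2.48% in HC11. The lines overlapped, and BC44 replicate 1 was highest. Of the others, the window of Csmd2 and Phc2 had 1.65% ± 0.748 (SD, n = 6 here and below) and that of Epb4.1 and Ptpru had 1.58% ± 0.363. The windows of Psmb2 and Sfpq (1.32% ± 0.385), of Inpp5b and Mtf1 (1.20% ± 0.345), of Macf1 and Ndufs5 (1.12% ± 0.391) and of Atp6v0b and Rnf220 (1.12% ± 0.398) followed. Neighbours in this order differed by less than their SD over libraries.

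The 5 lowest windows were gene-poor or held a tandem gene family. The lowest, chr4:76000001-77000000, lies entirely inside Ptprd, a receptor tyrosine phosphatase gene of neurons. Its captured share was 0.121%, 0.0405% and 0.0405% in BC44 and 0.121%, 0.0810% and 0.0405% in HC11. These values are 1 to 3 captured ends of 2470 in each library. The window of Mmp16 and Cnbd1 had 0.0875% ± 0.0732 and that of Skint6 and Skint10 had 0.0961% ± 0.0673. The other two, chr4:7000001-8000000 and chr4:31000001-32000000, held no coding gene start, with 14 and 12 captures over the 6 libraries. With so few captured ends, these 5 windows cannot be ranked among themselves.

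Windows were then grouped by their coding gene starts in GENCODE M1. Gene-dense windows (47) had 8 to 38 starts, middle windows (29) had 3 to 7, and gene-poor windows (53) had 0 to 2. In gene-dense windows the captured share was 1.14%, 0.674% and 0.556% in BC44 and 0.601%, 0.462% and 0.624% in HC11. In gene-poor windows it was 0.357%, 0.198% and 0.169% in BC44 and 0.171%, 0.107% and 0.157% in HC11. Every library had its gene-dense share above its gene-poor share, and middle windows lay between them in each.

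The fold of gene-dense over gene-poor windows was between 3.20 and 4.33 in the 6 libraries, with a mean log2 ratio of 1.85 ± 0.170 (SD, n = 6), or 3.60-fold. It was above 1 in 6 of 6 libraries (two-sided exact sign-flip permutation test, p = 0.03125, the smallest it allows, adjusted p = 0.03125 over 4 such comparisons). Reads per listed end gave 3.54-fold (log2 1.82 ± 0.219; exact sign-flip test, p = 0.03125, adjusted p = 0.03125). The median number of reads per captured end in gene-dense windows was 0.700 to 1.71 times that in gene-poor windows, higher in some libraries and lower in others. Gene-dense windows therefore differed in how many ends were captured and not in a common direction in how many reads each captured end had.

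**Figure D3:**
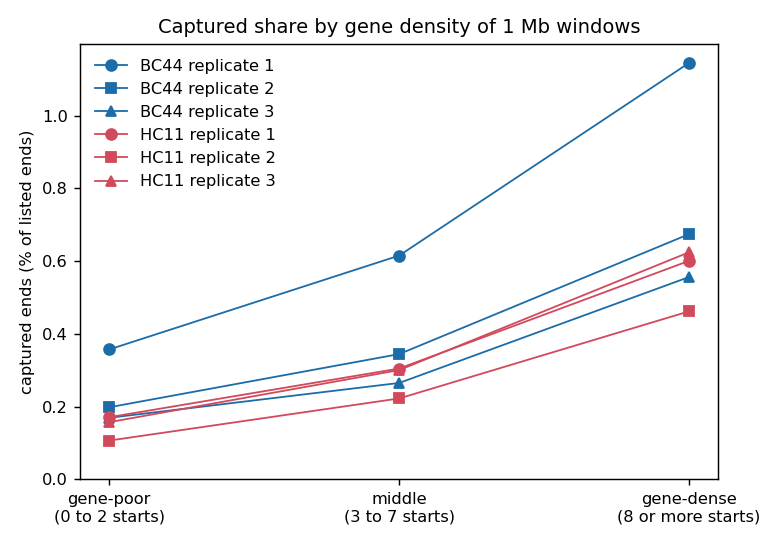
Captured share (percent of listed ends) in gene-poor, middle and gene-dense 1 Mb windows, 1 line per library, coloured by cell line. Each library rises from gene-poor (0.107% to 0.357%) to gene-dense windows (0.462% to 1.14%).

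Gene density moves with distance and with base composition, and both were measured. The Spearman correlation over the 129 windows was 0.688 between captured share and coding gene starts, -0.567 between captured share and distance, and -0.328 between gene starts and distance. Of the correlations computed, that of captured share was highest, 0.802, with the GC content of the listed ends, which averaged 44.8% in gene-dense and 39.5% in gene-poor windows. Comparing only ends of middle GC content (between the tertiles), gene-dense windows stayed higher, with a log2 ratio of 1.55 (exact sign-flip test, p = 0.03125). This restriction was on the first 80 bases of single ends. The mean GC of whole windows, to which the 0.802 belongs, was not matched, so it and gene density were not separated. Within blocks of 25 Mb of distance the log2 ratio, averaged with equal weight per block, was 1.10 (exact sign-flip test, p = 0.03125), lower than the 1.85 found over all distances. This average includes the block from 5 to 30 Mb, which had the largest ratio and in which distance was not matched.

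By block, the gene-dense share was 4.94 times the gene-poor share from 5 to 30 Mb, with every library between 3.79 and 7.33. It was 1.88 times from 30 to 55 Mb, 2.53 times from 55 to 80 Mb and 1.96 times from 80 to 105 Mb, above 1 in all 6 libraries in each. From 105 to 130 Mb it was 1.62 times, and 4 of 6 libraries were above 1. Those below were HC11 replicates 1 and 2, at 0.916 and 0.908. Past 130 Mb it was 1.51 times, with 4 of 6 above 1. Those below were HC11 replicates 1 and 3, at 0.397 and 0.596. Every BC44 library was above 1 in both blocks. The classes were filled unevenly. From 5 to 30 Mb there were 19 gene-dense windows and 3 gene-poor ones, with 78 captures, centred 15.3, 23.3 and 26.3 Mb away, while gene-dense windows reached to the 5 Mb limit, so distance within this block was not matched. From 105 to 130 Mb there were 2 gene-dense windows, and past 130 Mb 1 window of each class, with 24 and 19 captures. The order of the blocks was not tested.

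**Figure D4:**
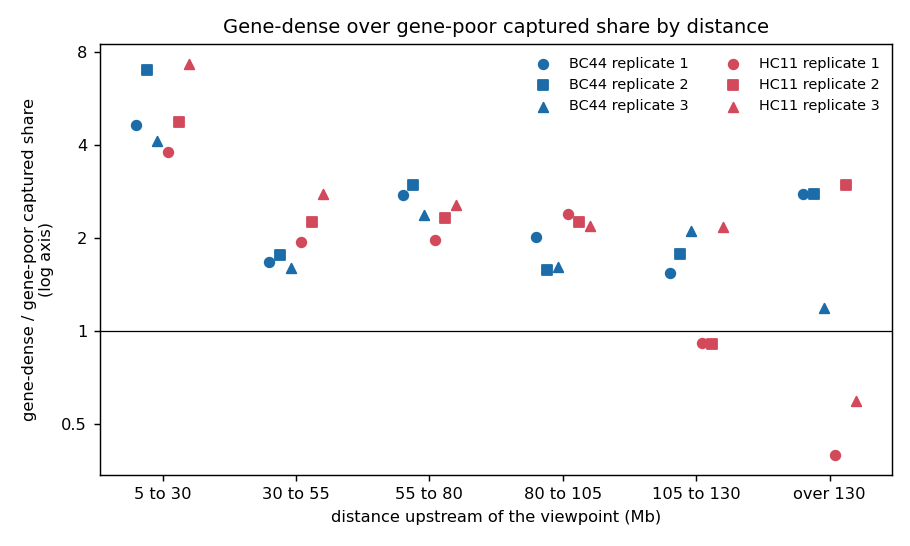
Gene-dense over gene-poor captured share (log axis) in blocks of distance upstream of the viewpoint, 1 point per library, with a line at 1. All 6 libraries lie above 1 from 5 to 105 Mb, and in each block beyond 4 of 6 do so, with those below 1 from HC11.

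Single ends were then split by whether they lie in a gene. Ends inside a coding gene had a captured share of 0.508% ± 0.205 and ends in no annotated gene 0.337% ± 0.121 (SD, n = 6). The fold was 1.50 and above 1 in 6 of 6 libraries (log2 0.581 ± 0.0945; exact sign-flip test, p = 0.03125, adjusted p = 0.03125), but within 25 Mb blocks the log2 ratio was 0.282 and no longer passed (p = 0.0625). Inside gene-dense windows genic ends were captured 1.12 times as often as intergenic ones, above 1 in 5 of 6 libraries. Inside gene-poor windows the ratio was 0.969, above 1 in 3 of 6. Intergenic ends of gene-dense windows, at 0.629% ± 0.197, were captured more than genic ends of gene-poor windows, at 0.196% ± 0.115. These last values were not tested.

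Fragment length and the position of the NlaIII site, which bear on whether a ligation can be amplified, also moved with capture. Ends of fragments under 200 bp had a captured share of 0.237% ± 0.0513 and those of 500 to 1000 bp had 0.480% ± 0.230. By distance from the end to the NlaIII site, the share rose and then fell. It was 0.295% ± 0.113 under 50 bp, 0.504% ± 0.194 from 150 to 300 bp and 0.277% ± 0.179 beyond 300 bp. Restricted to fragments of 200 to 1000 bp, the gene-dense to gene-poor log2 ratio was 1.85 (exact sign-flip test, p = 0.03125). No such restriction was made on the NlaIII distance.

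Some windows went against their class. Among gene-poor windows, 10 of 53 were above the median window, and 39 of 47 gene-dense ones were. The gene-poor window of Zfp462, Rad23b and Klf4, a transcription factor gene, had 2 coding gene starts and a captured share of 0.886%, 0.554% and 0.554% in BC44 and 0.332%, 0.258% and 0.517% in HC11. The window of Nfib, a transcription factor gene of the mammary epithelium among other tissues, and Mpdz had 1 start and 0.481% ± 0.181. In the other direction, the gene-dense window of Mup15 and Mup19 had 11 starts and 0.142% ± 0.156, and that of Agbl4 and Skint4 had 8 starts and 0.186% ± 0.0825. These 4 windows were picked after their values were seen.

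Gene lists were described by the captured share over each gene body with 50 kb on each side. The 30 widely expressed genes had a captured share of 0.991% ± 0.341, and 27 of 30 (90.0%) were above the mean of 0.406% over all listed ends upstream of the limit. Of all 937 coding genes there, 577 (61.6%) were above it, with a median of 0.551%. The highest was Hdac1 at 4.87%, 1.72% and 3.15% in BC44 and 1.72%, 1.72% and 3.15% in HC11, so the lines overlapped. The middle gene was Stoml2, a mitochondrial protein gene, at 0.984% ± 0.726, and the lowest was Smc2, a condensin subunit gene, at 0.0961% ± 0.149. Neighbours on this list, such as Med8 and Cdc20, share ends within their 50 kb flanks, so the 30 genes are not all separate observations.

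The other lists were lower. The long neuronal genes (14 annotated genes, of which Ptprd takes 2 entries; Brinp1 had no match) had 0.274% ± 0.164, and 4 of 14 (28.6%) were above 0.406%. Csmd2, 8.88 Mb from the viewpoint, was the highest of them at 0.877% ± 0.454 and Epha7, an ephrin receptor gene, the lowest at 0.111% ± 0.135. The developmental regulators had 0.353% ± 0.156, with 8 of 22 (36.4%) above, from Foxd3 at 0.0639% ± 0.156 to Mycl1 at 1.23% ± 0.668. The lists differ in distance: the median was 20.3 Mb for widely expressed, 59.5 Mb for long neuronal and 68.0 Mb for developmental genes. They also differ in gene density. In gene-dense windows lie 25 of the 30 widely expressed, 5 of the 14 long neuronal and 10 of the 22 developmental genes. The lists were not matched for gene density. Among genes over 30 Mb away, the median gene share was 0.560% for the 13 widely expressed, 0.211% for the 11 long neuronal and 0.268% for the 18 developmental genes. For the 46 genes of the tandem families, described next, it was 0.454%. Neighbours in an array share ends within their 50 kb flanks, so these genes are not separate observations. Ifna7 and Ifna11, for example, had equal counts of 166 listed ends and 5 captures. No such median was computed for all coding genes over 30 Mb away.

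The tandem families are arrays of related genes with tissue-restricted expression. Over their 78 genes the captured share was 0.268% ± 0.109, and 34 (43.6%) were above 0.406%, while 68 of the 78 lie in gene-dense windows. Of the 46 genes over 30 Mb away, 25 were above it, and no share was computed for all coding genes at that distance. Neighbours in an array share ends, so neither count is one of separate observations. The Skint cluster, a family of immunoglobulin-like genes of skin and thymus, spans chr4:111591997-113917633 with 11 genes. It had 7, 5 and 8 captured ends of 5594 in BC44 and 8, 0 and 7 in HC11, where a count of 0 allows a share of up to 0.0536%. Its share of 0.104% ± 0.0547 was below that of the 5 Mb on each side, 0.692% ± 0.230, in all 6 libraries, and the ranges did not overlap.

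The Mup cluster, which encodes the major urinary proteins, had 0.141% ± 0.112 against 0.498% ± 0.273 around it, lower in all 6 libraries. Its genes are near-identical copies and it listed 836 ends per Mb where the Skint cluster listed 2405, so reads there are uncertain. The Cyp4 cluster of fatty-acid hydroxylases had 0.234% ± 0.132 against 0.629% ± 0.201, also lower in all 6. The interferon cluster differed from these, with 0.599% ± 0.504 against 0.312% ± 0.177, above its surroundings in 4 of 6 libraries. Of the olfactory receptor clusters, that of 6 genes 93.0 Mb away had 0.699% ± 0.330 against 0.456% ± 0.140 (above in 5 of 6), that of 4 genes 83.9 Mb away had 1 captured end in all, a lone gene with 4 listed ends had none, and that of 13 genes 18.4 Mb away had 0.501% ± 0.282 against 0.808% ± 0.242 (above in 1 of 6). The families thus fell on both sides of their surroundings, with no test made.

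**Figure D5:**
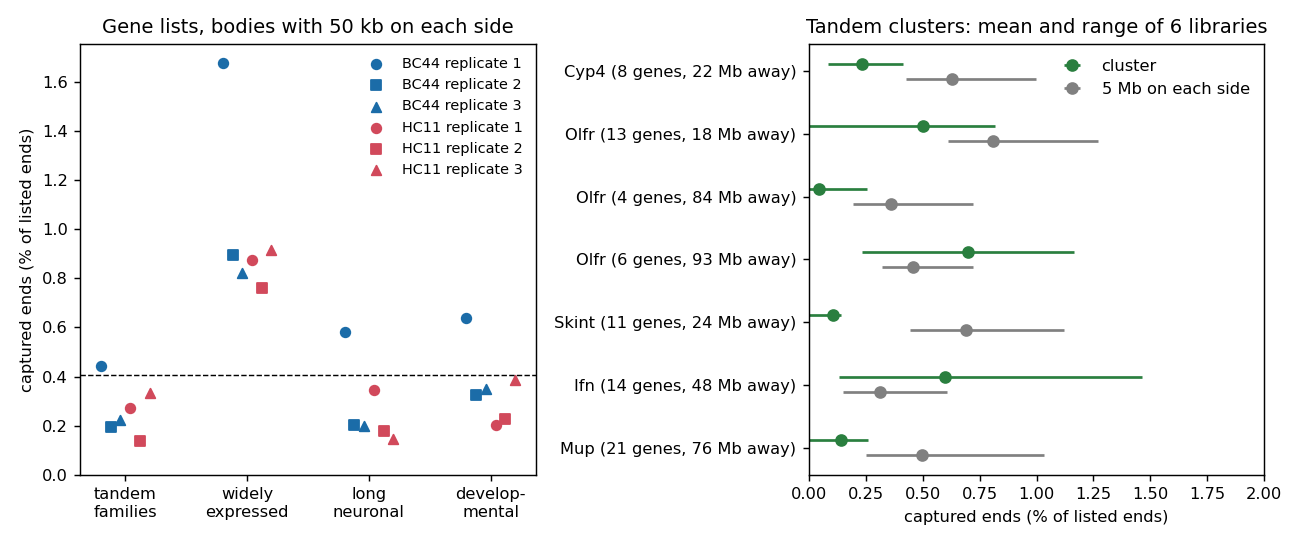
Left, captured share (percent of listed ends) of each gene list in each library, with a dashed line at 0.406%, the mean over all listed ends upstream of the limit. Right, tandem clusters (green) and the 5 Mb on each side of them (grey), as mean and lowest to highest of 6 libraries; the Skint cluster lies at 0.104% against 0.692%, without overlap.

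Captured share fell with distance in every library. On log2 scales over 5 Mb windows the slope was -0.642 ± 0.0841 in BC44 and -0.829 ± 0.134 in HC11 (SD, n = 3). Just inside the 5 Mb limit the 1 Mb of Epb4.1 and Ptpru had 1.46% ± 0.327, and just outside it the 1 Mb of Eya3 and Wasf2 had 2.95% ± 1.02 (SD, n = 6). At matched distances of 5 to 18.8 Mb, the upstream side was captured more than the downstream side. The fold was 1.19, 1.28 and 1.18 in BC44 and 1.14, 1.50 and 1.88 in HC11 (mean log2 0.421 ± 0.279, 6 of 6 libraries; exact sign-flip test, p = 0.03125, adjusted p = 0.03125; a comparison added after the data were seen). In gene-dense windows alone the log2 ratio was 0.362 (exact sign-flip test, p = 0.03125).

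Whether the lines differ in these long-range contacts was asked of 4 values per library besides the sharing. Reads upstream of the limit were 19.9%, 16.0% and 13.7% of reads more than 2 kb from the viewpoint in BC44 and 13.3%, 14.5% and 14.7% in HC11. The lines overlapped, and HC11 was 2.34 percentage points lower by its mean (difference -2.34; two-sided exact permutation test over 20 relabellings, p = 0.3, adjusted p = 0.375 over 5 line comparisons), a gap of -0.237 without both replicate 1 libraries. Captured share was 0.483% ± 0.198 in BC44 and 0.329% ± 0.0560 in HC11 (exact permutation p = 0.3, adjusted p = 0.375, n = 3 each). The gap was -0.154 percentage points, -0.0772 after thinning each library to 13621 reads and -0.0417 without BC44 replicate 1.

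The gene-dense to gene-poor log2 ratio was 1.72 ± 0.0429 in BC44 and 1.97 ± 0.151 in HC11, with every HC11 library above every BC44 library. The difference of 0.251 has the smallest p that 3 against 3 allows (exact permutation test, p = 0.1, adjusted p = 0.25), and with equal reads it was 0.189 (p = 0.3). The slope with distance was steeper in HC11 by -0.187 (exact permutation test, p = 0.1, adjusted p = 0.25). None of these differences passed, and this two-sided exact permutation test cannot pass 0.05 with 3 libraries against 3.

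Window by window, the lines' reads were tested by the edgeR quasi-likelihood method, in which reads of all windows more than 1 Mb from the viewpoint enter together. No 1 Mb window passed an adjusted p of 0.05 (0% of the 150 tested, 126 of them upstream of the limit), and 10 of the 126 had an unadjusted p under 0.05. No unadjusted count was made over all 150, so those 10 are not read as a result about the upstream windows. DESeq2 also called 0. With captured ends in place of reads, 1 of the 43 upstream windows that could be tested passed, with HC11 higher (log2 0.72, edgeR adjusted p = 0.0167), against 4.48% of the 67 tested in all. The lines did not overlap in 20 of the 126 windows (15.9%; 16.7% over all 150), 7 with HC11 above (7.33% over all 150) and 13 with BC44 above (9.33%).

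The 3 windows with the lowest unadjusted p were those of Psip1 and Bnc2, of Epb4.1 and Ptpru, and of Penk and Impad1. At Psip1 and Bnc2 the CPM values (reads scaled to library size) were 5361, 10597 and 4016 in BC44 and 1672, 806 and 1382 in HC11. The lines did not overlap, with a log2 difference of HC11 over BC44 of -2.36 (SE 0.796; edgeR adjusted p = 0.427). At Epb4.1 and Ptpru it was 0.99 (SE 0.366; edgeR adjusted p = 0.427). At Penk and Impad1, 132 Mb from the viewpoint, it was -5.39 (SE 2.03; edgeR adjusted p = 0.427), from 2334, 545 and 2753 CPM in BC44 and 87.8, 35.1 and 5.88 CPM in HC11. The BC44 values came from 810, 127 and 719 reads at 9, 4 and 3 captured ends. Those of HC11 came from 23, 1 and 1 reads at 3, 1 and 1 captured ends, so the difference rests on few ends.

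With 5 Mb windows, 1 of the 27 upstream of the limit passed, against 5.88% of all 34 tested. It is the window cut short by the limit, chr4:130000001-131832107, whose genes include Sdc3, a syndecan gene, Epb4.1, a membrane skeleton gene, and Ptpru, a receptor phosphatase gene. Its reads were 23364, 32081 and 22033 CPM in BC44 and 42894, 60897 and 49401 CPM in HC11. Every HC11 library was above every BC44 library, as in 4 of the 27 windows (14.7% over all 34), while BC44 was above in 3 (11.8%), so that 25.9% of the 27 did not overlap, against 26.5% of all 34. The log2 difference was 0.98 (SE 0.266; edgeR adjusted p = 0.0155; 0.0065 to 0.279 over the alternatives).

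The direction held under each alternative, while the call did not. Counting captured ends in place of reads, the log2 difference was 0.68 and did not pass (edgeR adjusted p = 0.0653). The captured share itself was 1.97%, 1.66% and 1.08% in BC44 and 1.66%, 1.66% and 1.77% in HC11, and the lines overlapped. Without BC44 replicate 1 the log2 difference was 0.92 (edgeR adjusted p = 0.0874), without BC44 replicate 3 0.88 (0.0564), without HC11 replicate 2 0.75 (0.279) and without HC11 replicate 3 0.93 (0.0609), so the call was lost in each of these while HC11 stayed higher.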

How the data were processed

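The values were whole-number read counts per DpnII fragment end, deposited by the authors in 1 table per library. Mapping was to mm9 with the de Wit laboratory's 4C pipeline at default settings, per the design text, and used read 1 alone, per the labels' protocols. How reads with several placements were treated is not given in the sources used here. Libraries were grouped by line in their titles.

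From these counts, captured ends (at least 1 read) and reads were summed in windows of 1 and 5 Mb, ends within 2 kb of the viewpoint being left out of totals. Genes came from GENCODE M1 on mm9. Values per library were compared by exact permutation with Benjamini-Hochberg adjustment, and windows with edgeR 4.0.16 (TMM, at least 10 reads in 3 libraries, tested on simulated data), with DESeq2 1.42.0 as an alternative. The simulated counts had a fixed spread not taken from these data, so they do not measure power here. Named windows were the 8 highest and 5 lowest by captured share, those past the edgeR threshold or else the 3 of lowest p, and those beside the limit; named genes were the list members and longest genes of a window, and the highest, middle and lowest of each list. Members, lists and tests were chosen with earlier results of these data known. The rule for single ends, capture in 5 or 6 libraries, found none. One of the 8 highest windows and 1 of the ends captured in 4 libraries are not reported here by name.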

Additional observations from a re-analysis of the deposited data

How the results depend on the processing

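The gene-dense to gene-poor ratio of captured shares stayed positive under each alternative run, from 1.10 within 25 Mb blocks to 2.05 in 2 Mb windows on the log2 scale, and that of reads from 0.898 to 2.09. Leaving out 1 library gave 1.79 to 1.88 and 1.78 to 1.90, each with p = 0.0625, the smallest that 5 libraries allow in an exact sign-flip permutation test. With replicates 2 and 3 alone the ratios were 1.90 and 1.86 (exact sign-flip p = 0.125, the smallest for 4 libraries). The genic to intergenic log2 ratio was 0.560 to 0.605 without 1 library and 0.282 within 25 Mb blocks. The upstream to downstream log2 ratio was 0.323 to 0.467 without 1 library. In the replicate 1 libraries alone, the HC11 minus BC44 difference was -6.56 points in reads, -0.347 points in captured share and 0.133 in the gene-dense to gene-poor log2 ratio. Without 1 library it was -3.76 to -0.682, -0.228 to -0.0417 and 0.180 to 0.330, and the slope difference was -0.244 to -0.113. Sharing within minus between lines turned to 0.0226 points with captures of at least 2 reads; the cause was not tested. Ends captured in several libraries numbered 240 at 1 read, 171 at 2 reads, 130 at 5 reads and 150 without repeated words. With captured ends in place of reads, 1 window of 1 Mb passed (of 43 that could be tested) and 0 of 5 Mb; with replicates 2 and 3 alone 0 of 5 Mb passed; without 1 library 0 windows of 1 Mb and 0 to 1 of 5 Mb passed. Omitting TMM scaling moved the median 5 Mb window from -0.02 to -0.20 and the called window from 0.98 to 0.82 (log2). The low depth of HC11 replicate 2 limits its captured share, and the 5 lowest windows had 0 to 5 captured ends per library.

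The labels give both lines the replicate numbers 1 to 3. Deviations of same-numbered libraries from their line means over 5 Mb windows correlated by -0.0097, 0.275 and -0.109, and not every library correlated best with its own number, so the numbers were not taken as pairs. The replicate 1 libraries did share another feature. Only 821405 of 1401717 reads (BC44) and 962655 of 1755373 (HC11) lay more than 2 kb from the viewpoint. For replicates 2 and 3 it was 796915 of 825498 and 919132 of 946689 in BC44. In HC11 it was 93823 of 96690 and 610965 of 625186. What set the replicate 1 libraries apart was not tested. With the replicate block, 0 windows of 1 Mb and 1 of 5 Mb passed edgeR, the latter at an adjusted p of 0.0489.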
